A study of Mus musculus with 8 samples.

Results

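The genes described here make, move, store and break down cholesterol, and their expression was compared between the striatum of R6/2 and wild-type (WT) mice. They were chosen by name: 37 genes, listed under 38 symbols because Msmo1 also carries its older name Sc4mol. All 37 were on the array, with 54 of its 55681 non-control probes. By role they comprise 18 enzymes of cholesterol synthesis, 7 regulators, and 12 genes of uptake, export, storage and breakdown.

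Striatal RNA came from male mice 4 weeks of age, with 4 R6/2 and 4 WT samples, each on its own 1-colour microarray. The R6/2 transgene holds exon 1 of human huntingtin with an expanded CAG repeat under the human huntingtin promoter, and WT mice lack it. The labels give neither the strain nor whether each sample was a separate animal, so the spread that p-values are set against here may be technical. All 8 arrays lay on 1 slide and were scanned in 1 session. The WT arrays filled one side of the slide and the R6/2 arrays the other, so genotype and side of the slide cannot be told apart.

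The brain makes nearly all of its own cholesterol, because lipoproteins of the blood do not cross into it. In the first weeks after birth oligodendrocytes make large amounts for myelin, and astrocytes pass cholesterol to neurons on particles that carry apolipoprotein E. Synthesis is switched on by the transcription factor SREBP-2 (Srebf2), which SCAP carries out of the endoplasmic reticulum when sterols are low and which the INSIG proteins hold back when sterols are high. Oxidised sterols activate the liver X receptors (LXR), which switch on export genes such as Abca1. Neurons remove a surplus through the hydroxylase Cyp46a1.

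The promoters were searched for the elements through which both switches act. Stretches with a match are shown for Srebf2 and Abca1, the members whose arrays separated by genotype, and for a second gene with each element. They are RefSeq sequences of build GRCm38.p6, 5′ to 3′ on the gene's strand, from a table of 250 bases before to 50 bases after each start site, and capitals mark the match. Hmgcs1, a target of SREBP-2, is shown at chr13:119690174-119690262 (plus strand), and its match to the sterol regulatory element TCACNCCAC begins 137 bases before the start site.
Hmgcs1: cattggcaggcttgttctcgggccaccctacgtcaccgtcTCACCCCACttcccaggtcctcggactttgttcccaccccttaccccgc
Srebf2, at chr15:82147067-82147154 (plus strand), holds the first 8 letters of that element in the form TCACCCCA, 162 bases before its own start site.
Srebf2: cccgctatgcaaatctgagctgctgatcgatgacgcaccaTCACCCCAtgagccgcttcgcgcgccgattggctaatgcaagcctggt
Abca1 (chr4:53159908-53160002, minus strand) and Srebf1 (chr11:60210599-60210693, minus strand) both match an LXR element (GGTNA and GGTCA with any 5 bases between) on the opposite strand, 67 and 182 bases before a start site.
Abca1: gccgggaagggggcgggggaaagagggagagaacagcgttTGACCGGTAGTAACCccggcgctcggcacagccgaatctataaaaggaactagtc
Srebf1: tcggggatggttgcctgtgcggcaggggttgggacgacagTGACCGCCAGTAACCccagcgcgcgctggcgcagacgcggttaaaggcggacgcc

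Both strands were searched. The full sterol element was found in 1.44% of the 27025 genes with a promoter in the table, its shortened form in 1.77% and the LXR element in 0.226%. Of the 15 synthesis enzymes with an entry, Hmgcs1 was the 1 with the full element, and no regulator (7 entries) or gene of uptake, export, storage and breakdown (8 entries) held it. Fdps, Fdft1 and Sqle had no entry and were not searched. An element outside the window, or written with other letters, would not be found. The shortened form overlaps the full one, and it was also found in Apoe. The CCAAT box, the site of the factor NF-Y, which works beside SREBP-2 at many sterol promoters, was the most frequent match. CCAAT was present in 14 of the 15 synthesis promoters, all but that of Acat2, against 4 of 7 regulators, 3 of 8 genes of uptake, export, storage and breakdown, and 41.1% of all genes with an entry. These matches describe letters in the window and do not show that a factor binds there.

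Signal is given as log2 of the background-corrected spot signal minus the array's own 75th percentile, so a value describes 1 probe across arrays, and levels of different probes are not compared. Each array had between 61.5% and 67.7% of probes well above background. The 12 listed markers of striatal projection neurons were all above background on all 8 arrays. Limma called 7 of them lower in R6/2 (median difference -0.72), where it called 1.46% of all genes lower. WT 3 correlated less with its own genotype (mean r of 0.984 across genes) than the other WT arrays did (0.988 to 0.989). In bulk tissue, fewer cells of a type and less RNA per cell cannot be told apart.

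No member differed between the genotypes at an adjusted p under 0.05 in limma. Of the 16565 genes tested 1.93% did, 1.46% lower in R6/2 and 0.465% higher. Of the 37 members, 25 had a negative difference (R6/2 minus WT), where 45.5% of all genes did, and the median was -0.07 against 0.02 for all genes. At an unadjusted p under 0.05 there were 2 members, Srebf2 lower and Abca1 higher in R6/2, while 19.0% of all genes passed that mark, 9.79% lower and 9.22% higher. The same 2 were the members whose R6/2 arrays lay wholly on one side of the WT arrays, as for 14.5% of all genes, 6.72% below and 7.82% above. These counts depend on WT 3. Without it 11 of the 37 members were lower at that unadjusted mark (11.1% of all genes) and 1 was higher (8.51%). WT 3 was singled out after its values were seen, as the lowest array for 13 of the 18 synthesis enzymes. The counts without it therefore follow in part from that choice and are no test of the members. With array weights 7 members were lower (11.9% of all genes) and with the replicate block 4 (12.4%). In the authors' deposited table, 0 of the 54 member probes had an adjusted p under 0.05 in their unpaired test, where 0.259% of its probes did, and 7 had an unadjusted p under 0.05, where 12.2% of its probes did. All 37 genes were tested, although Ch25h passed the filter through few arrays.

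**Figure D1:**
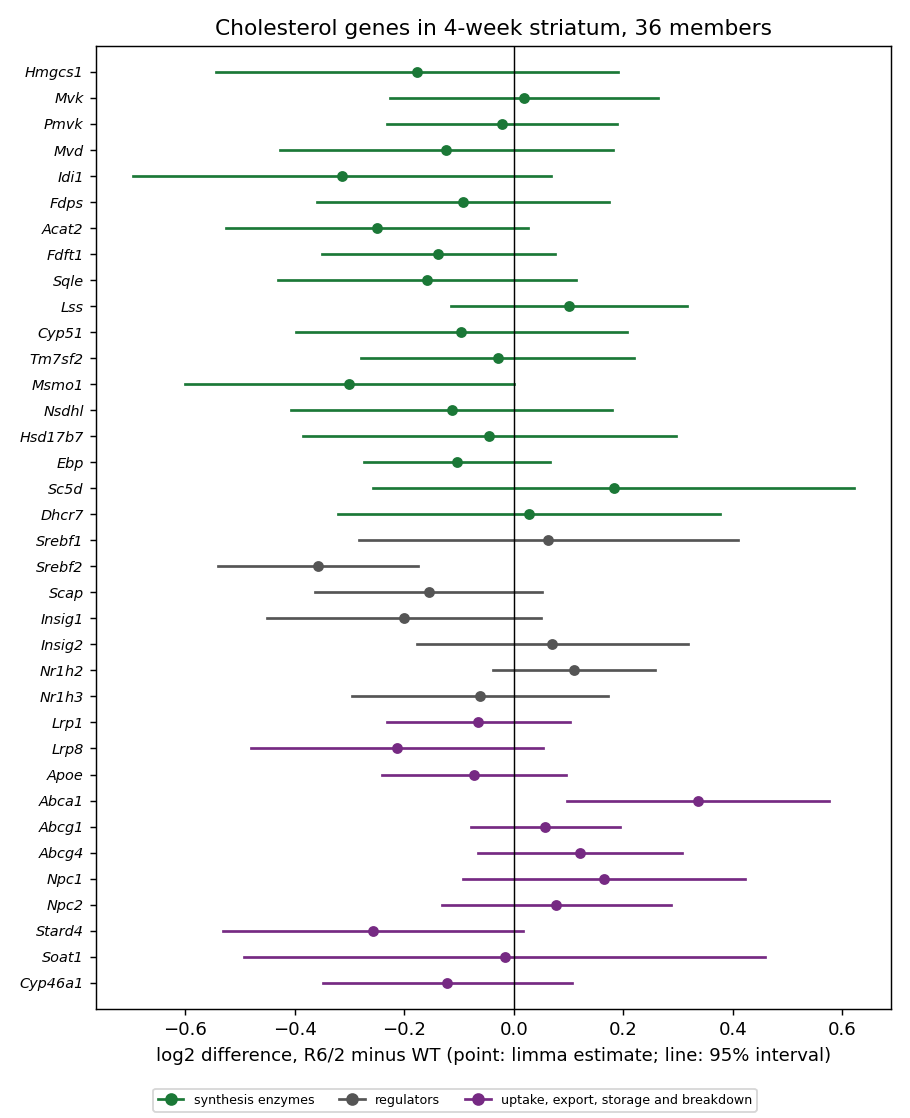
Log2 difference (R6/2 minus WT) of 36 members on the x axis, 1 gene per row, coloured by role; points are limma estimates and lines their 95% intervals before any adjustment, n = 4 arrays per genotype, Ch25h not drawn. The intervals of Srebf2 (-0.54 to -0.17) and Abca1 (0.10 to 0.58) lie on one side of 0, and those of the other 34 genes reach it.

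Srebf2, the transcription factor that turns on sterol synthesis and uptake, was the member with the smallest p. Its values were -0.22, -0.14, -0.09 and -0.27 on WT 1 to 4, and -0.46, -0.44, -0.60 and -0.65 on R6/2 1 to 4. All R6/2 arrays were below all WT arrays. The log2 difference was -0.36 ± 0.08 (SE, n = 4 per genotype; limma adjusted p = 0.0724), an R6/2 level of 0.781 of WT. This probe lies on chromosome 15 at 82034765 to 82034824 (mm9), and a second one at 82030068 to 82030127 also had all R6/2 arrays below all WT arrays, with a difference of -0.22 ± 0.06 (SE; limma adjusted p = 0.142). The call of Srebf2 turned on the processing: it passed with normexp background correction (limma adjusted p = 0.0350), with the mean of both probes (0.0409) and with a trended, robust variance (0.0488). Over the other alternatives its adjusted p ran up to 0.174, and the difference stayed between -0.39 and -0.29 in all 19.

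The partners of SREBP-2 had smaller differences. Insig1, the retention factor that is itself an SREBP-2 target, read -0.43, -0.73, -0.74 and -0.46 in WT and -0.69, -0.96, -0.86 and -0.66 in R6/2. The groups overlapped, with WT 2 and WT 3 among the R6/2 values, and the difference was -0.20 ± 0.11 (SE, n = 4 per genotype; limma adjusted p = 0.398). Scap, the escort of SREBP-2, had a difference of -0.16 ± 0.09 (limma adjusted p = 0.428). Insig2, a second retention factor, had a difference of 0.07 on its main probe and -0.06 on another. Srebf1, whose protein drives fatty acid synthesis, had a difference of 0.06, with a wider spread in R6/2 (SD 0.32) than in WT (SD 0.08) because R6/2 3 and R6/2 4 read -0.74 and -0.98 against -1.35 and -1.40 on the others.

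The synthesis enzymes mostly had negative differences, none of which passed the test. Of the 18, 14 were negative, the median was -0.10, and the range was from -0.31 (Idi1) to 0.18 (Sc5d). The early, mevalonate part of the pathway included Hmgcs1, which condenses acetoacetyl-CoA and acetyl-CoA (-0.18 ± 0.16, SE, n = 4 per genotype), and Acat2, a thiolase that supplies acetoacetyl-CoA (-0.25 ± 0.12). Mvk (0.02), Pmvk (-0.02) and Mvd (-0.12), which turn mevalonate into isopentenyl diphosphate, had small differences. Idi1, which isomerises that unit, had -0.31 ± 0.17, and Fdps, which joins the units into farnesyl diphosphate, -0.09.

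The enzymes of the sterol branch were similar in size. Fdft1, the squalene synthase, had a difference of -0.14 and Sqle, the squalene epoxidase, of -0.16. Lss, which closes the sterol rings, had 0.10. Cyp51 (-0.10), Tm7sf2 (-0.03), Msmo1 (-0.30 ± 0.13), Nsdhl (-0.11) and Hsd17b7 (-0.04) strip methyl groups from lanosterol or reduce what is left. Ebp (-0.10), Sc5d (0.18 ± 0.19) and Dhcr7 (0.03) rearrange the last double bonds. Limma adjusted p-values of the 18 enzymes were all at or above 0.295.

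Msmo1, the sterol C4-methyl oxidase and the enzyme of smallest p, read 4.74, 4.41, 4.20 and 4.72 on WT 1 to 4 and 4.32, 4.26, 4.19 and 4.09 on R6/2 1 to 4. WT 1, WT 2 and WT 4 were above every R6/2 array, and WT 3 lay among them. Idi1 read 3.08, 2.70, 2.37 and 3.03 in WT and 2.63, 2.58, 2.41 and 2.30 in R6/2. It had the same order, with WT 3 inside the R6/2 range and the other WT arrays above it. Acat2 read 0.36, -0.06, 0.28 and 0.08 in WT and -0.06, -0.24, 0.12 and -0.16 in R6/2. For Acat2 it was WT 2 and WT 4 that lay within the R6/2 range, not WT 3.

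WT 3 was the low array for most of the pathway's enzymes. It gave the lowest value for 13 of the 18, and WT 1 or WT 4 gave the highest for 14. The mean of the 18 enzymes, each centred on its own mean over the 8 arrays, was 0.19, 0.03, -0.23 and 0.19 on WT 1 to 4. On R6/2 1 to 4 it was -0.02, -0.02, -0.02 and -0.12. The WT arrays thus spread around 4 R6/2 arrays that lay close together, with an SD of 0.20 in WT and 0.05 in R6/2, and the groups overlapped through WT 3.

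**Figure D2:**
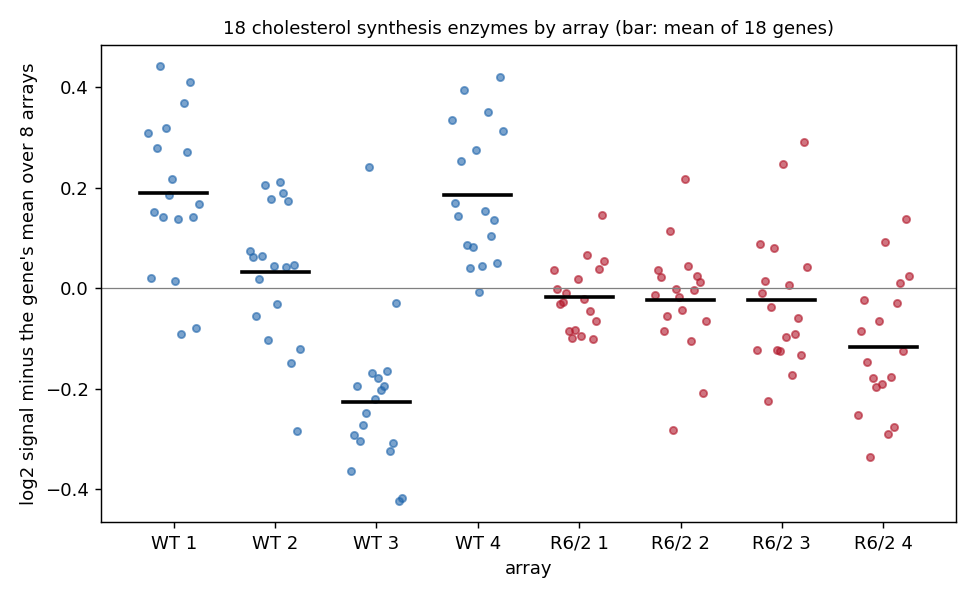
Signal of 18 cholesterol synthesis enzymes on each array, as log2 signal minus the gene's mean over 8 arrays (y axis); each point is 1 gene and each bar the mean of 18 genes, WT in blue and R6/2 in red. The bars of WT 1 and WT 4 stand at 0.19, that of WT 3 at -0.23, and those of the R6/2 arrays between -0.12 and -0.02.

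Without WT 3, an array singled out after its values were seen, 17 of the 18 enzymes had a lower difference than with all arrays, Acat2 going from -0.25 to -0.21. A gene whose lowest WT value was on WT 3 must have a lower difference without it. The counts that follow depend in part on that choice of array and are no test of the enzymes. Then 16 of 18 were negative with a median of -0.19, while 48.5% of all genes were negative. At an unadjusted p under 0.05, 7 enzymes were lower in R6/2, where 11.1% of all genes were, and 0 were higher, where 8.51% of all genes were. These were Hmgcs1, Mvd, Idi1, Fdft1, Sqle, Msmo1 and Nsdhl, with differences from -0.46 for Idi1 to -0.22 for Fdft1. Limma called 0 of the 37 members at an adjusted p under 0.05 without WT 3, against 1.86% of all genes. Over the fits that left out each other array the median of the enzymes lay between -0.13 and -0.06.

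WT 3 also stood high for markers of other cells. It gave the highest value for 6 of 8 endothelial and 7 of 10 microglial markers, with centred means of 0.45 and 0.33. The microglial marker P2ry12 went the other way, with its lowest value on WT 3 (0.12, against 0.78 to 1.15 on the other arrays). The summed endothelial marker signal was 44.0 times the array's 75th percentile on WT 3, against 27.7 to 28.5 on the other WT arrays. On the R6/2 arrays it was 26.7 to 34.4, highest on R6/2 3. The mean of the synthesis enzymes on R6/2 3 was -0.02, near those of R6/2 1 and R6/2 2. All 8 endothelial and all 10 microglial markers were above background on every array. Their part in the low enzyme signal of WT 3 was not tested.

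**Figure D3:**
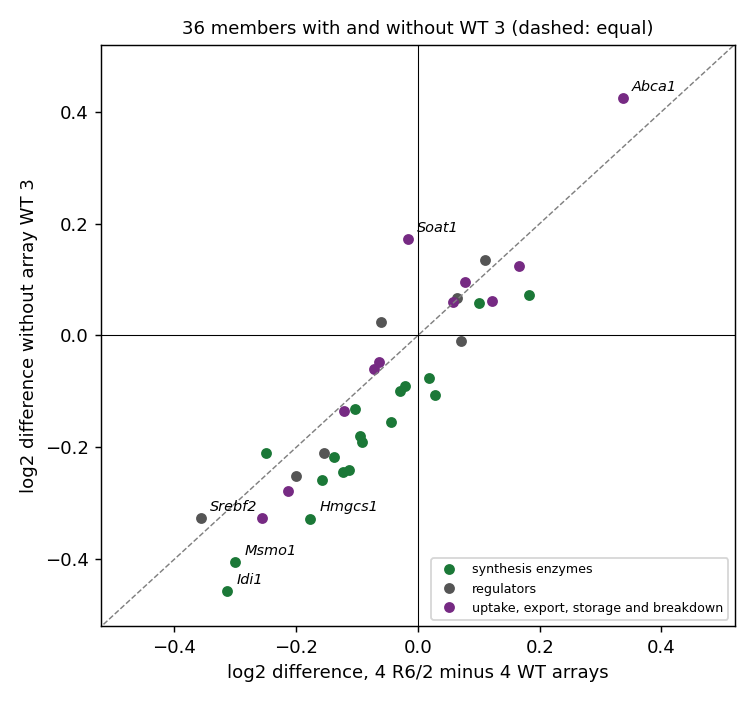
Log2 difference of 36 members with all arrays (x axis) and without array WT 3 (y axis), 1 point per gene coloured by role, with a dashed line where both are equal and Ch25h not drawn. Synthesis enzymes lie mostly below the line, Idi1 going from -0.31 to -0.46 and Hmgcs1 from -0.18 to -0.33, while Abca1 goes from 0.34 to 0.43.

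Probes of some genes disagreed, and those of Fdft1, Tm7sf2, Hsd17b7, Insig2 and Abcg4 had differences of both signs. Hsd17b7 had differences of -0.04 and -0.07 on its main probe and another, but the other one, a dim probe, read -4.17, -4.28, -4.30 and -4.05 in WT and -3.73, -3.90, -3.68 and -3.63 in R6/2. All R6/2 arrays were above all WT arrays there, with a difference of 0.46 ± 0.09 (SE, n = 4 per genotype; limma adjusted p = 0.0519). It lies on chromosome 1 at 171885632 to 171885691 (mm9), while the other probes lie at 171880203 to 171880262 and 171883182 to 171883241, and the scanner files assign it to a different transcript. The second probe of Nsdhl had all R6/2 arrays below all WT arrays (-0.25 ± 0.09, limma adjusted p = 0.186), against -0.11 on its main probe. The second probe of Fdft1, a dim one well above background on 3 of 4 R6/2 arrays, had a difference of 0.09 ± 0.16. Its sign was opposite to that of the main probe.

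Among the export genes, Abca1, the transporter that loads cholesterol onto apolipoproteins, had the highest difference of the members' main probes. It read 0.22, 0.06, 0.50 and 0.15 on WT 1 to 4 and 0.52, 0.54, 0.69 and 0.53 on R6/2 1 to 4. All R6/2 arrays were above all WT arrays, WT 3 coming closest. The log2 difference was 0.34 ± 0.10 (SE, n = 4 per genotype; limma adjusted p = 0.157), an R6/2 level 1.26 times that of WT. With array weights it was 0.39 and passed (limma adjusted p = 0.0462). Its probe lies on chromosome 4 at 53043944 to 53044003 (mm9).

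Other genes that LXR controls had differences nearer to 0. Abcg1, which passes cholesterol to lipoprotein particles, had a difference of 0.06 ± 0.06 (SE, n = 4 per genotype), and Abcg4, its neuronal relative, 0.12 ± 0.08 on the main probe and -0.12 on another. Apoe, the brain's main apolipoprotein, read 7.10, 7.11, 7.18 and 7.16 in WT and 6.97, 7.08, 7.20 and 7.00 in R6/2. Its genotypes overlapped through R6/2 3, the highest of the 8 arrays, and its difference was -0.07 ± 0.07 (limma adjusted p = 0.665), with an interval of -0.24 to 0.10. Quantile normalization turned the sign of Apoe (0.03). The receptors themselves had differences of 0.11 for Nr1h2 (LXR beta) and -0.06 for Nr1h3 (LXR alpha).

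**Figure D4:**
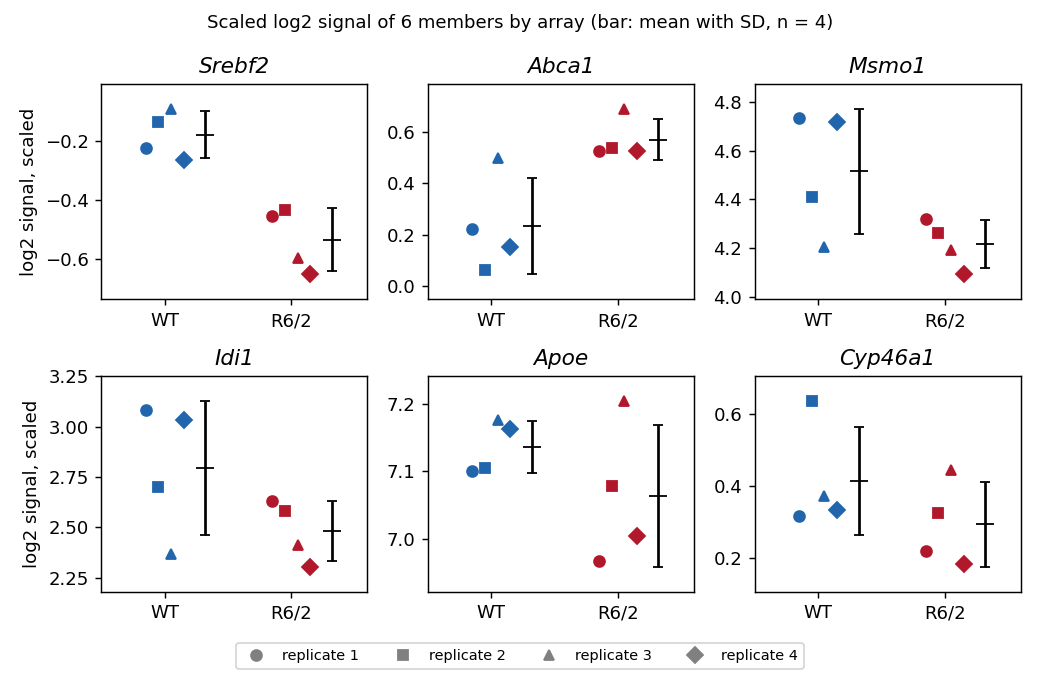
Scaled log2 signal (y axis, a different range in each panel) of Srebf2, Abca1, Msmo1, Idi1, Apoe and Cyp46a1 on 4 WT (blue) and 4 R6/2 (red) arrays; point shapes give the replicate number and bars the mean with SD. The genotypes do not overlap for Srebf2 or Abca1, and in Msmo1 and Idi1 the WT 3 triangle lies among the R6/2 points.

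Uptake and intracellular transport genes had differences of both signs. Of the lipoprotein receptors, Lrp1 had a difference of -0.06 and Lrp8, which also binds reelin, -0.21 ± 0.12 (SE, n = 4 per genotype), with -0.20 on its second probe. Npc1 (0.17 ± 0.11) and Npc2 (0.08 ± 0.09) together move cholesterol out of lysosomes. Stard4, a soluble carrier of sterols and an SREBP-2 target, read 0.82, 1.10, 0.63 and 0.82 in WT and 0.41, 0.59, 0.55 and 0.79 in R6/2. R6/2 4 lay among the WT arrays and the other R6/2 arrays below them, and the difference was -0.26 ± 0.12 (limma adjusted p = 0.324). Soat1, which esterifies cholesterol for storage, had a difference of -0.02 ± 0.21, and its sign turned with quantile normalization (0.04) and without WT 3 (0.17).

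Neither enzyme of cholesterol breakdown passed the test. Cyp46a1, the neuronal cholesterol 24-hydroxylase, read 0.32, 0.64, 0.37 and 0.33 in WT and 0.22, 0.33, 0.45 and 0.18 in R6/2. The genotypes overlapped, with R6/2 3 above every WT array but WT 2, and the difference was -0.12 ± 0.10 (SE, n = 4 per genotype; limma adjusted p = 0.585), with an interval of -0.35 to 0.11. Ch25h, the cholesterol 25-hydroxylase, was well above background on 3 of 4 WT arrays and 1 of 4 R6/2 arrays. It read -5.86, -0.82, 0.43 and -4.89 in WT and -5.55, -4.03, -7.43 and -5.69 in R6/2, so WT 2 and WT 3 were high and the other 6 arrays low. Its fitted difference (-2.89 ± 1.44, limma adjusted p = 0.358) sets WT 2 and WT 3 against arrays near background and gives no size.

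Set side by side, the synthesis enzymes had a median difference of -0.10 and the 12 genes of uptake, export, storage and breakdown of -0.04, or -0.02 without Ch25h, against 0.02 for all genes tested. Negative differences numbered 14 of 18 and 7 of 12. The mean of the enzymes minus that of the other 11 genes, Ch25h left out, was 0.18, 0.05, -0.25 and 0.20 on WT 1 to 4. On R6/2 1 to 4 it was 0.02, -0.00, -0.09 and -0.11. WT 1, WT 2 and WT 4 were above all R6/2 arrays and WT 3 below all of them, so the genotypes did not separate. The medians of the roles differed by -0.06, and by -0.19 without WT 3. The SD of that quantity between arrays of 1 genotype was 0.15 over all arrays.

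Of 45 further genes of the pathway, 44 were tested, 22 were negative, and the median was 0.01. In limma 5 were lower and 6 higher at an unadjusted p under 0.05, where 9.79% of all genes were lower and 9.22% higher. The R6/2 arrays lay wholly below the WT arrays for 2 (6.72% of all genes) and wholly above for 5 (7.82%). Limma called 1 of the 44, where it called 1.93% of all genes. This was Cyp27a1, the sterol 27-hydroxylase that starts another route of cholesterol breakdown. Its probe was dim and read -4.11, -4.10, -4.26 and -4.06 in WT and -3.71, -3.73, -3.55 and -3.79 in R6/2. All R6/2 arrays were above all WT arrays, as for 7.82% of all genes. Cyp27a1 rose by 0.44 ± 0.08 (SE, n = 4 per genotype; limma adjusted p = 0.0443), but the call rests on the processing. With the replicate number as a block its limma adjusted p was 0.0901. The call was also lost with normexp (0.14, adjusted p = 0.220), quantile normalization (0.0574), no filter on dim probes (0.114), outlier spots kept (0.0673), a trended, robust variance (0.119), and whichever single array was left out (0.0613 to 0.114).

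Of 17 fatty acid synthesis genes that SREBP proteins also control, 0 were called in limma (1.93% of all genes) and the median was -0.04. At an unadjusted p under 0.05, 1 was lower in R6/2, where 9.79% of all genes were. Thrsp (-0.42, limma adjusted p = 0.123), Fasn (-0.16, 0.340) and Acly (-0.15, 0.373) had the smallest p-values there.

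Most markers of striatal projection neurons, the main neurons of this tissue, fell in R6/2. Of the 12, 11 were negative (45.5% of all genes) and 7 passed in limma as lower (1.46% of all genes). All R6/2 arrays were below all WT arrays for 10 (6.72% of all genes). Penk, the proenkephalin precursor, fell by 1.11 (limma adjusted p = 0.0102) and Adora2a, an adenosine receptor, by 1.15 (0.0499). Their summed signal was 732 to 833 times the 75th percentile in WT and 392 to 529 in R6/2, without overlap. The 10 pan-neuronal markers had a median of -0.16 (384 to 416 and 328 to 362) and the 6 cortical ones of -0.35 (11.2 to 17.8 and 7.57 to 16.5). The sums of the pan-neuronal markers did not overlap, but their centred means did (-0.10 to 0.14 in WT and -0.18 to 0.01 in R6/2). Limma called 0 of the pan-neuronal and 0 of the cortical markers. At an unadjusted p under 0.05, 3 and 1 were lower in R6/2, where 9.79% of all genes were.

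Among astrocyte, oligodendrocyte and microglial markers limma called 0, where it called 1.93% of all genes. At an unadjusted p under 0.05 in limma, 5 were lower and 1 higher, where 9.79% of all genes were lower and 9.22% higher. The higher one was the astrocyte marker Gfap (0.34, limma adjusted p = 0.168). Its 3 tested probes all had positive differences, from 0.34 to 2.33. The 12 oligodendrocyte and myelin markers had a median of -0.06, and their summed signal was 729 to 917 times the 75th percentile in WT and 622 to 799 in R6/2. The centred mean of these markers was highest on WT 1 (0.27) and WT 4 (0.20), the arrays on which the synthesis enzymes were also highest, and lowest on R6/2 4 (-0.31). On WT 2 it was -0.17 and on WT 3 it was -0.09, while the means of the synthesis enzymes there were 0.03 and -0.23. The 12 astrocyte markers had a median of -0.09, with summed signals of 337 to 379 in WT and 316 to 339 in R6/2, and the 10 microglial markers a median of -0.18 (137 to 163 and 120 to 135). Such sums are weighted towards the brightest probes. The centred means of the astrocyte markers overlapped, at -0.09 to 0.14 in WT and -0.12 to 0.05 in R6/2. Those of the microglial markers also overlapped, at -0.14 to 0.33 in WT and -0.16 to -0.07 in R6/2. All markers of these lists were above background on every array. The part of these cells and of neurons in the members' differences was not tested.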

How the data were processed

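Striatal RNA of 4 R6/2 and 4 WT samples was hybridised to 1-colour arrays. Per the file headers, the deposited intensity values came from Feature Extraction 10.7.3.1, whose processed signal is background-corrected and spatially detrended, with probe positions on mm9. The authors' deposited table gives log2 values, which are log2 of the processed signal minus a constant per array (found from the values; the method is not stated), with p-values. The authors' fold column is the unsigned ratio given by the difference of mean log2 values (checked on the values), deposited with its direction in words. Its p-values are from an unpaired test, asymptotic, with Benjamini-Hochberg correction, per the file headers.

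Here the log2 processed signal minus each array's 75th percentile (434 to 486) was used, flagged outlier spots were left out, and spots of a probe averaged. Probes well above background on at least 4 of 8 arrays (35121 of 55681; 52 of the 54 member probes) entered a linear model per probe (limma 3.58.1, lmFit then eBayes, R 4.3.3). Benjamini-Hochberg adjustment ran over all of them, with a call under 0.05. The tested probe of highest mean signal stands for a gene. Genes were named by transcript accession (26762 probes), symbol (3819) or synonym (639) in the GRCm38.p6 table, and members by the scanner files' symbol. Data were simulated for this comparison (35117 probes, 200 of them changed, with noise independent between probes). Of probes changed 1.5-fold 41.8% were recovered, of those changed 2-fold 62.7% and of those changed 4-fold 93.9%. Of 134 calls, 2 were false. The number of arrays limits the precision.

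Members, lists and tests were chosen with earlier results of these data known. All members are named. Values by array are given for the 8 members of smallest p, for Srebf2, Insig1, Cyp46a1 and Apoe, and for members whose genotypes do not overlap. Of other pathway genes, those called are named, or the 3 of smallest p. Some genes of these lists are not reported here. The shortened sterol, CCAAT and LXR motifs were added after the values were seen. Same-numbered arrays of both genotypes, which also share their place along the slide, deviated together (correlations of 0.13 to 0.36 across probes), so a fit with the replicate number as a block was made too. It called 168 genes against 319 and 0 members.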

Additional observations from a re-analysis of the deposited data

Results flagged for a closer look

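A single array far from the rest was looked for in 80 groups of 4 arrays (each member and each role's mean, by genotype), of which chance marks about 1 in 20, and 2 stood out. Abca1 read 0.69 on R6/2 3, far from 0.52 to 0.54 on the other R6/2 arrays. The mean of the synthesis enzymes was -0.12 on R6/2 4, away from -0.02 on each of the other R6/2 arrays.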

How the results depend on the processing

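The median difference of the synthesis enzymes was negative under all 19 alternatives. It ran from -0.11 to -0.08 under other processing and from -0.19 to -0.06 when 1 array was left out. Its SD between arrays of 1 genotype, WT 3 included, was 0.14. The main value (-0.10) was smaller in size than that SD. The value without WT 3 (-0.19) was larger, but that array was singled out after its values were seen. That SD describes single arrays and not a difference between group means. The median of the uptake, export, storage and breakdown genes changed sign with quantile normalization (0.033). When 1 array was left out it ran from -0.11 (without R6/2 3) to 0.0069 (without WT 3). The difference between both medians ran from -0.19 to 0.02 over the fits that left out an array, and was -0.08 without Ch25h, an alternative chosen after seeing the data. Over all genes, the count of 319 called genes became 617 with normexp, 77 with no filter on dim probes, 501 with the mean over a gene's probes, 168 with the replicate block, 652 with array weights and 645 with a trended, robust variance. It ran from 74 to 308 with 1 array left out: WT 1 to 4 gave 109, 77, 308 and 74 when left out, and R6/2 1 to 4 gave 129, 78, 76 and 119. The causes were not tested. The replicate block changed no call of a member. No slide or scan block could be fitted, since all arrays shared 1 slide and 1 session. Of the members, 11 changed sign under at least 1 alternative: Mvk, Pmvk, Tm7sf2, Hsd17b7, Sc5d, Dhcr7, Srebf1, Insig2, Nr1h3, Apoe and Soat1. In the simulation, 41.8% of probes changed 1.5-fold were recovered. Changes smaller than that, as those of all members but Ch25h were, were not simulated, so their recovery is not known. Recovery also depends on the share of probes changed, which may differ in the data.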
